A study of Mus musculus with 9 samples.

Results

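Beige adipocytes are fat cells that form inside white fat depots and can burn lipid for heat. They arise from fibroblast-like precursors, the preadipocytes, which build and hold the collagen-rich stroma of the depot. The comparison described here sets cells after 8 days of beige differentiation (day 8) against uninduced preadipocytes (day 0), gene by gene, in ribosome footprints. It takes 6 of the 9 libraries of the series, 3 per group, and 14714 of the 55359 genes of the count table, chosen for having enough counts to test. The other 3 libraries, from day 4, entered the choice of tested genes, the scaling and the estimate of spread between replicates, but not the contrast.

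The cultures were mouse preadipocytes from the inguinal depot of white fat, which lies under the skin. Day 0 cells were not induced. Day 8 cells first received an induction medium with dexamethasone, 3-isobutyl-1-methylxanthine, indomethacin, insulin, triiodothyronine and rosiglitazone, and after 2 days a maintenance medium that lacked the first 3 agents. The labels give neither strain, sex nor age, and do not say whether replicates came from separate animals or cultures. All p-values therefore refer to the spread among libraries, which may be technical.

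Ribo-seq counts the mRNA fragments that ribosomes shield from RNase, so the share of a library's footprints on a gene approximates the share of the cells' translating ribosomes that it occupies. A long coding sequence holds more ribosomes than a short one at the same rate of initiation, so no gene's level is set against another's here. RNA levels were not analysed, and a change in footprints combines a change in mRNA with a change in ribosomes per mRNA. In a culture of mixed cells, fewer cells of a type and less RNA per cell cannot be told apart. Libraries held 30823028 to 35836063 counts at day 0 and 34870272 to 35881351 at day 8, so that 1 count equals 0.0279 to 0.0324 CPM. CPM is the number of counts on a gene per 1000000 counts of the same library, without further scaling.

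During fat cell formation, the nuclear receptor PPARγ and the C/EBP factors switch on genes for fatty acid uptake, triglyceride storage and adipokines, while the precursor's matrix and contractile programme recedes. In beige and brown fat, PGC-1 coactivators add mitochondria, and the uncoupling protein UCP1 lets protons back across the inner membrane so that respiration yields heat. Transforming growth factor beta and mechanical tension, through serum response factor and its actin-sensing partners, hold precursors in the fibroblast state.

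The labels were checked against marker genes. A list of 12 mature adipocyte markers summed to 302, 374 and 286 CPM in the day 0 libraries and 63499.7, 62177 and 59274 at day 8, and all 11 tested members rose. The list of brown or beige markers summed to 16.5, 17.3 and 14.3 at day 0 and 2190.5, 2293 and 1354 at day 8, and all 11 tested members rose. For 12 preadipocyte and stromal markers the sums were 80162, 79833 and 91697 at day 0 and 9429, 11621 and 23043 at day 8, and 9 fell, none rose and 3 were not called. All 3 sums separated the groups, and day 8 replicate 3 lay nearest to day 0 in each of them. Lep, the leptin gene, had 0 counts in every day 0 library, which allows up to 0.0837 to 0.0973 CPM, and stood at 0.229, 0 and 0.201 at day 8. Dio2, the deiodinase that activates thyroid hormone in brown fat, stood at 0.429, 0.892 and 0.229 at day 8. Both had too few counts to be tested.

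Lists of markers of other cell types were summed in the same way. The macrophage list summed to 62.9, 104 and 129.8 CPM at day 0 and 8.52, 34.7 and 48.6 at day 8, with 7 of 11 tested members lower and none higher. The endothelial list summed to 21.8, 21.3 and 28.5 and 5.06, 3.65 and 8.66, with 5 of 6 lower, and the lymphocyte list to 33.2, 40.2 and 36.1 and 29.02, 35.6 and 31.5, with none of 6 called. Hbb-bt and Hba-a2 of the erythroid list had no count in any of the 6 libraries. The mural and smooth muscle list went from 4579.6, 3850.1 and 2822 to 418, 307 and 432, with 4 of 9 members lower and 3 higher. Acta2 made up most of the sum at day 0, and Cspg4 and Notch3, both called higher, added to it at day 8.

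Day 8 replicate 3 stood apart. On the first principal component of the 6 libraries (91.1% of the variance) it lay at 85.8, against 111.7 for each of the other day 8 libraries. Ucp1 read 299.7, 342 and 133 CPM in day 8 replicates 1, 2 and 3. Where leaving it out moved a described gene's fold by more than 1.5 times, both values are given.

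Across all 14714 tested genes, 9961 (67.7%) were called at an adjusted p under 0.05 by edgeR's quasi-likelihood test with Benjamini-Hochberg adjustment over all tested genes, and all adjusted p-values come from that fit. Of these, 5033 were higher at day 8 (34.2% of tested genes) and 4928 lower (33.5%), and 3136 and 2927 of them differed at least 2-fold. With so many calls, a gene's membership among them says little, and the size of its change and of its share carries the description. For 75.8% of tested genes the libraries of day 0 and day 8 did not overlap. The median log2 fold change was -0.01 and moved by -0.11 under upper quartile scaling.

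As a share of library totals, 47.0% of all footprint counts lay on other genes at day 8 than at day 0. This value is the sum of the rises in mean share over genes, which equals the sum of the falls by construction. The number of footprints per cell was not measured. Between single libraries of the 2 days it ranged from 43.5% to 49.7%, and between libraries of day 0 from 4.24% to 5.86%. Within day 8 it was 4.11% between replicates 1 and 2 and 8.79% and 9.03% against replicate 3. The falls were held by fewer genes than the rises. A set of 26 genes held 50% of the fall and 88 genes held 50% of the rise, and the 15 largest falls made up 20.8 percentage points against 12.5 points for the 15 largest rises.

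**Figure D1:**
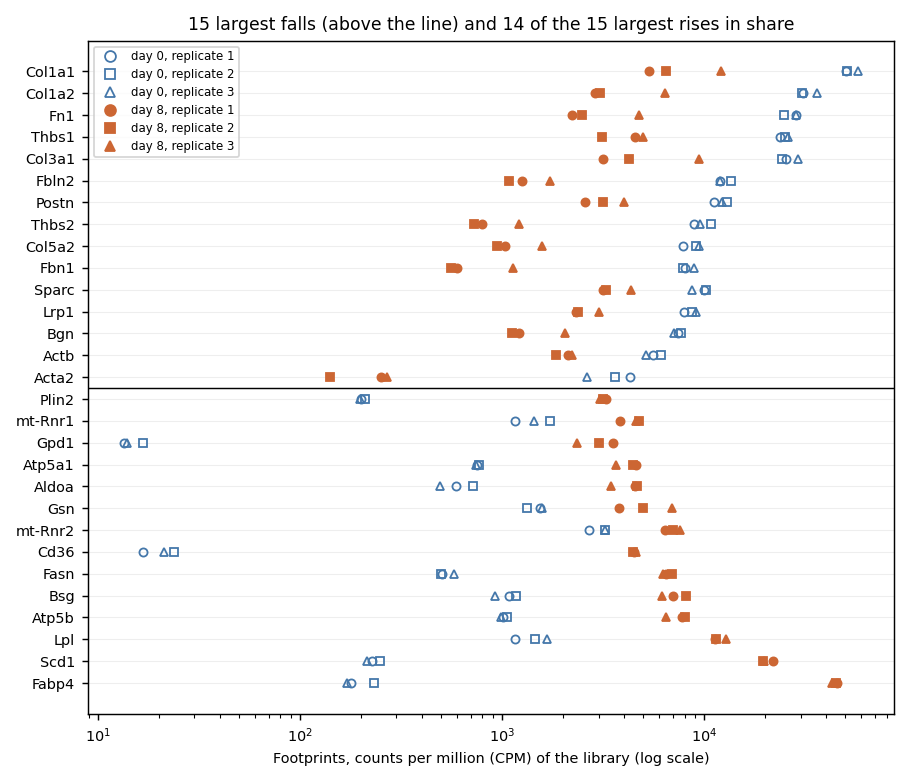
Footprints in CPM in each day 0 library (open symbols) and day 8 library (filled symbols), on a log axis, for the 15 genes with the largest fall in mean share (above the line) and 14 of the 15 with the largest rise (below it). The groups do not overlap for any gene plotted, and for most of the falling genes day 8 replicate 3 (filled triangle) lies nearest to day 0.

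The footprint pool was more evenly spread at day 8. At day 0, 266, 251 and 225 genes held 50% of the counts of replicates 1, 2 and 3, and at day 8, 374, 371 and 364 did. The groups did not overlap, and the exact two-sided permutation test gave p = 0.1, the smallest that 3 against 3 libraries allow. The 10 genes with most counts held 21.7% ± 1.11 (SD, n = 3) at day 0 and 12.5% ± 0.497 at day 8.

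Footprints were then summed over 43 classes of genes, each gene in 1 class, which hold 1511 of the tested genes. In 40 classes the shares of the day 0 and day 8 libraries did not overlap, 22 being higher at day 8 and 18 lower, and for each the exact permutation test gave the smallest possible p of 0.1. Of single tested genes 75.8% did not overlap either, nor did the sum of all genes in no class (means of 47.4% and 50.1%). A lack of overlap therefore does not set a class apart, and the size of its change carries the description. The classes with a higher share at day 8 summed to a difference of 27.3 percentage points of all footprints, and those with a lower share to -30.1 points. The class of other mitochondrial RNAs is among the 22 and gave 0.918 of the 27.3 points. The ribosomal RNA mt-Rnr2, whose reads are not footprints of coding sequence, made up 51.1% of that class. The classes that overlapped were insulin and IGF signalling, cytosolic aminoacyl-tRNA synthetases and histones.

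**Figure D2:**
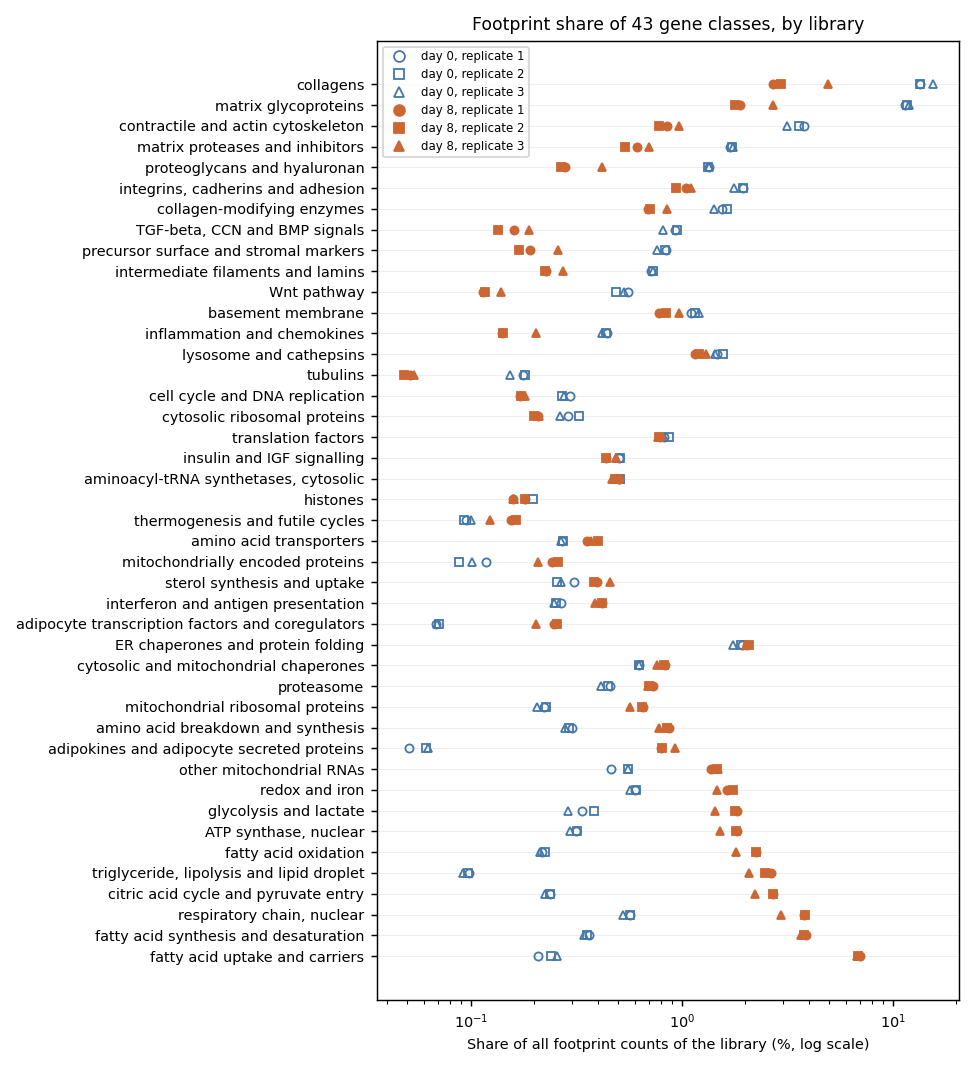
Share of all footprint counts (percent, log axis) on each of 43 gene classes in the day 0 libraries (open symbols) and day 8 libraries (filled symbols), ordered from the largest fall to the largest rise in points. Collagens had a mean of 14.1% at day 0 and 3.53% at day 8, and fatty acid uptake and carriers 0.234% and 6.85%.

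The 6 matrix classes (collagens, matrix glycoproteins, basement membrane, proteoglycans, collagen-modifying enzymes, and matrix proteases with their inhibitors) held 30.6%, 30.98% and 33.1% of all footprints at day 0. At day 8 they held 6.94%, 7.08% and 10.6%. The mean was 31.6% ± 1.36 at day 0 and 8.21% ± 2.07 at day 8 (SD, n = 3), so the matrix share differed by -23.4 percentage points of all footprints (exact two-sided permutation p = 0.1, the smallest possible). Replicate 3 kept the largest share of the day 8 libraries and still lay far below every day 0 library.

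Collagens alone took 13.5%, 13.4% and 15.5% of footprints in the day 0 libraries and 2.71%, 2.94% and 4.95% at day 8. Of 33 tested collagen genes, 23 fell, 6 rose and 4 were not called, with a median log2 fold change of -2.22. Col1a1 (ENSMUSG00000001506), a chain of type I collagen, the main fibril of connective tissue, had 50325, 51059 and 57512 CPM at day 0 and 5342, 6487 and 12155 at day 8. It fell 6.57-fold (log2 fold change -2.72 ± 0.36 SE, adjusted p = 9.54e-05), with replicate 3 highest among the day 8 libraries and no overlap. Its partner chain Col1a2 fell 7.85-fold (log2 fold change -2.97 ± 0.37 SE, adjusted p = 7.31e-05), and Col5a2, a chain that seeds thin fibrils, fell 7.38-fold (log2 fold change -2.88 ± 0.28 SE, adjusted p = 1.46e-05).

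Col3a1 (ENSMUSG00000026043), the fibrillar collagen of soft tissues, had 25401, 24393 and 29215 CPM at day 0 and 3159, 4231 and 9400.5 at day 8. It fell 4.67-fold (log2 fold change -2.22 ± 0.38 SE, adjusted p = 0.000531), and without day 8 replicate 3 its log2 fold change was -2.82. Col14a1, which decorates fibrils, had 684, 805 and 935 CPM at day 0 and 11.1, 12.1 and 34.8 at day 8. It was 41.4-fold lower (log2 fold change -5.37 ± 0.64 SE, adjusted p = 5.55e-05), and -6.10 without replicate 3. Col8a1, a short-chain collagen, was 33.5-fold lower (log2 fold change -5.07 ± 0.58 SE, adjusted p = 4.25e-05).

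Not all collagens were lower. Col15a1 (ENSMUSG00000028339), a collagen of the zone around basement membranes, had 273, 197 and 228 CPM at day 0 and 1797, 1643 and 2284 at day 8, with every day 8 library above every day 0 library. It rose 8.28-fold (log2 fold change 3.05 ± 0.21 SE, adjusted p = 2.1e-06). Col5a3 rose by 2.65 ± 0.25 and Col18a1, the source of endostatin, by 2.18 ± 0.16 on the log2 scale. The type VI chains Col6a1 and Col6a2 rose by 0.66 ± 0.18 and 0.66 ± 0.19, with the call of Col6a2 lost without day 0 replicate 2, while Col6a3 stood at 0.03 ± 0.21 (adjusted p = 0.894). The type IV chain Col4a1 of basement membranes stood at -0.11 ± 0.17 (adjusted p = 0.587). Apart from Col1a1, Col1a2, Col3a1, Col5a2, Col8a1 and Col14a1, the collagens named here were chosen after their values were seen.

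Matrix glycoproteins, the adhesive and elastic proteins between the fibrils, held 11.5%, 11.7% and 11.9% at day 0 and 1.88%, 1.79% and 2.71% at day 8. Of 49 tested members 40 fell and 4 rose, with a median of -2.28. Fn1 (ENSMUSG00000026193), fibronectin, had 28399, 24924 and 28484 CPM at day 0 and 2220.3, 2478 and 4742 at day 8. It fell 8.59-fold (log2 fold change -3.10 ± 0.40 SE, adjusted p = 9.21e-05), again with replicate 3 highest at day 8 and no overlap. Thbs1 and Thbs2, the thrombospondins, which act on growth factor activation and cell adhesion, fell 5.87-fold and 10.6-fold (-2.55 ± 0.43 and -3.40 ± 0.29 on the log2 scale).

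Thbs1 had 23807, 25156 and 26013 CPM at day 0 and 4547, 3111 and 5008 at day 8. Fbn1, fibrillin of the elastic microfibrils, had 8068, 7834 and 8941 CPM at day 0 and 601, 561 and 1126 at day 8. Both were lower in every day 8 library, Fbn1 by 10.8-fold (log2 fold change -3.43 ± 0.48 SE, adjusted p = 0.000158). Fbln2, a fibulin of the same fibres, fell 9.14-fold, Postn, periostin, 3.72-fold and Sparc, a collagen-binding protein, 2.66-fold. Among the members that rose, Sparcl1, a relative of Sparc, went from 4.12, 4.61 and 4.02 to 87.3, 142 and 148 CPM (log2 fold change 4.90 ± 0.24 SE, adjusted p = 4.24e-07) and was chosen after its values were seen.

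The smaller matrix classes had lower shares at day 8 as well. Proteoglycans held 1.34%, 1.33% and 1.35% at day 0 and 0.2802%, 0.267% and 0.419% at day 8, with 20 of 25 members lower and 5 higher. Bgn, biglycan, had 7461, 7704 and 7075 CPM at day 0 and 1212, 1116 and 2039.8 at day 8, a fall of 5.04-fold (log2 fold change -2.33 ± 0.31 SE, adjusted p = 0.000112). Vcan, versican of loose matrix, fell 9.499-fold (log2 fold change -3.25 ± 0.41 SE, adjusted p = 7.52e-05). The day 8 libraries lay below all day 0 libraries for both genes.

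Proteases and inhibitors held 1.69%, 1.73% and 1.75% and 0.615%, 0.535% and 0.695%, with 34 of 42 members lower and 3 higher. Mmp14, the membrane-bound protease that cleaves pericellular collagen, had 3027, 3455 and 3446 CPM at day 0 and 303, 238 and 540.2 at day 8 and fell 9.099-fold (log2 fold change -3.19 ± 0.43 SE, adjusted p = 0.00012). Timp3, a matrix-bound inhibitor of such proteases, had 1264, 886 and 1126 CPM at day 0 and 52.5, 33 and 98.1 at day 8 and was 17.7-fold lower (log2 fold change -4.14 ± 0.47 SE, adjusted p = 4.21e-05). The protease and its inhibitor were thus both lower in every day 8 library.

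Enzymes that modify collagen held 1.56%, 1.63% and 1.42% and 0.687%, 0.703% and 0.849%, with 21 of 26 members lower. Lox, which cross-links collagen, and Serpinh1, the collagen chaperone, had log2 fold changes of -1.32 ± 0.25 and -1.66 ± 0.19. Plod1, a lysyl hydroxylase, was the 1 member that rose, from 306, 398 and 308 to 982, 1044 and 1051 CPM (log2 fold change 1.62 ± 0.16 SE, adjusted p = 1.86e-05).

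Basement membrane genes, without the collagens, went down by the smallest factor of the 6 matrix classes, from 1.105%, 1.16% and 1.21% to 0.777%, 0.839% and 0.9705%, with 9 of 14 members lower and 3 higher. Hspg2, perlecan, fell 2.05-fold (log2 fold change -1.03 ± 0.18 SE, adjusted p = 0.000508). Nid1, nidogen, went from 2085, 2418 and 2159.8 to 1351, 1446 and 1831 CPM (log2 fold change -0.51 ± 0.16 SE, adjusted p = 0.014) and was not called without day 0 replicate 2, day 8 replicate 1 or day 8 replicate 2. Lama4, a laminin chain, rose 1.75-fold, from 785, 830.4 and 1004 to 1476, 1563 and 1513 CPM (log2 fold change 0.81 ± 0.14 SE, adjusted p = 0.00059).

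Contractile and actin genes had the largest share of lower members among the 43 classes. Of 62 tested members 57 fell (91.9%, against 33.5% of all tested genes), 2 rose and 3 were not called, and the median was -2.13. The class held 3.78%, 3.61% and 3.16% of footprints at day 0 and 0.851%, 0.776% and 0.971% at day 8. Acta2 (ENSMUSG00000035783), the smooth muscle actin of myofibroblasts, had 4319, 3617 and 2642 CPM at day 0 and 253, 141 and 269 at day 8. It fell 15.7-fold (log2 fold change -3.98 ± 0.59 SE, adjusted p = 0.000208) with no overlap, and day 0 replicate 3 was the lowest of the day 0 libraries.

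Actb, cytoskeletal actin, had 5611, 6096 and 5158 CPM at day 0 and 2114, 1857 and 2226 at day 8 and fell 2.696-fold (log2 fold change -1.43 ± 0.18 SE, adjusted p = 7.99e-05). Myh9, the heavy chain of non-muscle myosin II, had 3375, 3495 and 3409 CPM at day 0 and 651, 596 and 733 at day 8 and fell 5.15-fold (log2 fold change -2.36 ± 0.25 SE, adjusted p = 2.32e-05). Tmsb4x, which binds actin monomers, fell 6.57-fold, and Cnn1, calponin of smooth muscle, was 54.2-fold lower (log2 fold change -5.76 ± 0.86 SE, adjusted p = 0.000225, and -6.74 without day 8 replicate 3). The fitted factors of Acta2 and Cnn1 were larger than that of Actb, and this difference was not tested. Cnn1 was chosen after its values were seen.

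Many contractile genes carry CArG boxes, the sites that serum response factor binds, so their promoters were searched for this motif in its strict form, on both strands. RefSeq promoters of build GRCm38.p6, from 250 bases before to 50 after each start, were found for 54 of the 62 genes. The counts were made on GRCm39, and no coordinate was carried between the builds. A box lay in 12 of the 54 genes (22.2%). Counted per promoter, 14 of 71 promoters of the class held one (19.7%), against 535 of all 32851 promoters in the table (1.63%). A match describes the letters only. The windows show 30 bases around each box in the sense of the gene, with the box in capitals, for the class members that hold one. They are shown because the members with a box did not all move together.
Acta1 (chr8:123894829-123894858, minus strand): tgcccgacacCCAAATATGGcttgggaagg
Actc1 (chr2:114052903-114052932, minus strand): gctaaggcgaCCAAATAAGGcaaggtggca
Actg1 (chr11:120348566-120348595, minus strand): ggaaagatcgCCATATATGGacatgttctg
Cnn2 (chr10:79988534-79988563, plus strand): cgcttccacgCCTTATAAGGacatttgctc
Fhl1 (chrX:56779571-56779600, plus strand): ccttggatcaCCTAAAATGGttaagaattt
Fhl2 (chr1:43163973-43164002, minus strand): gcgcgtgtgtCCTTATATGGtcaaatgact
Fhl2 (chr1:43196838-43196867, minus strand): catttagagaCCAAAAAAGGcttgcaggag
Ldb3 (chr14:34588697-34588726, minus strand): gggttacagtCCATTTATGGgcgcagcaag
Lima1 (chr15:99820177-99820206, minus strand): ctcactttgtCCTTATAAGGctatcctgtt
Myl6 (chr10:128493040-128493069, minus strand): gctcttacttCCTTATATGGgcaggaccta
Myl9 (chr2:156775293-156775322, plus strand): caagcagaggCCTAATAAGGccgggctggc
Srf (chr17:46556205-46556234, minus strand): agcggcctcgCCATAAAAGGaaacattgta
Srf (chr17:46556225-46556254, minus strand): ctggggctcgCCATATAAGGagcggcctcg
Vcl (chr14:20929161-20929190, plus strand): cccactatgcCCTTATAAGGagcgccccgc

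Of the 12 genes with a box, 9 fell, 1 rose and 2 were not called, and their median log2 fold change was -1.52. Of the 42 genes whose promoter held no box, 40 fell, 1 rose and 1 was not called, with a median of -2.13. The difference between the medians was not tested. Looser forms of the motif and sites outside the searched bases were not counted, so a gene without a match may still have a site. Myl9, a myosin light chain, and Fhl2, a LIM protein of stress fibres, had log2 fold changes of -3.78 ± 0.42 and -3.35 ± 0.36. Acta1, skeletal actin, had 58.9, 50.6 and 44.9 CPM at day 0 and 5.86, 7.47 and 8.29 at day 8 with a log2 fold change of -2.82 ± 0.33. Actg1, Vcl (vinculin) and Myl6 had log2 fold changes of -0.92 ± 0.18, -0.86 ± 0.17 and -0.73 ± 0.12. Fhl1 rose by 0.97 ± 0.26 (adjusted p = 0.0073). Srf, which encodes serum response factor itself, had 16.8, 14.02 and 11.5 CPM at day 0 and 15.1, 12.9 and 15.6 at day 8, with overlapping groups (log2 fold change 0.06 ± 0.21 SE, adjusted p = 0.818), while Mrtfa, its actin-sensing coactivator, fell (-1.73 ± 0.14, adjusted p = 5.3e-06). The genes of this paragraph were chosen for their boxes, and Mrtfa after its values were seen.

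**Figure D3:**
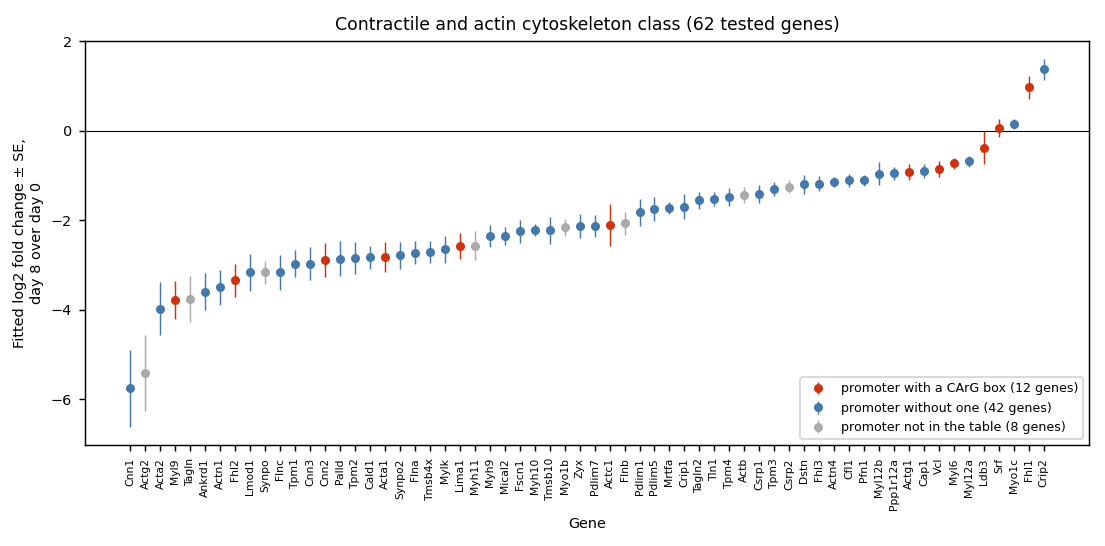
Fitted log2 fold change (day 8 over day 0) with its standard error for the 62 tested genes of the contractile and actin class, ordered by size and coloured by whether a RefSeq promoter of the gene holds a CArG box. Nearly all lie below 0, and the 12 genes with a box lie between Myl9 at -3.78 and Fhl1 at 0.97.

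Other structural classes had lower shares too. Tubulins held 0.176%, 0.181% and 0.154% and 0.0513%, 0.04798% and 0.05399%, with 9 of 14 members lower and 4 higher. Intermediate filaments and lamins held 0.718%, 0.728% and 0.7296% and 0.228%, 0.224% and 0.273%, with 10 of 13 lower. Vim, vimentin, the filament of mesenchymal cells, had 3775, 3814 and 3494 CPM at day 0 and 1075, 948 and 1222 at day 8 and fell 3.38-fold (log2 fold change -1.76 ± 0.25 SE, adjusted p = 0.000185). Among adhesion genes 31 of 47 fell and 8 rose. Itgb1, the common integrin beta chain, fell 2.81-fold (log2 fold change -1.49 ± 0.20 SE, adjusted p = 0.000105), and Lgals3, galectin-3, rose 6.11-fold from 203, 195 and 223 to 1388, 1170.4 and 1207 CPM (log2 fold change 2.61 ± 0.13 SE, adjusted p = 4.39e-07).

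Signals and receptors of the precursor came next. Ligands and matricellular regulators of the TGF-beta, CCN and BMP class held 0.9301%, 0.946% and 0.8104% at day 0 and 0.159%, 0.134% and 0.188% at day 8, with 24 of 30 members lower and 3 higher. Ccn3, a matricellular protein of the CCN family, had 2054, 1988 and 1799 CPM at day 0 and 14.2, 11.7 and 79.7 at day 8. It was 54.6-fold lower (log2 fold change -5.77 ± 0.78 SE, adjusted p = 0.00012), and its log2 fold change was -7.21 without day 8 replicate 3, the highest of the day 8 libraries. Ccn2, connective tissue growth factor, had 1253, 1700.1 and 889 CPM at day 0 and 97.03, 53.04 and 86.2 at day 8 and was 16.04-fold lower (log2 fold change -4.004 ± 0.51 SE, adjusted p = 7.84e-05). Ccn1 of the same family fell 2.23-fold (log2 fold change -1.16 ± 0.26 SE, adjusted p = 0.00285).

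In the Wnt class 20 of 32 members fell and 5 rose. Sfrp1, a secreted Wnt antagonist, had 3066, 2455 and 2779.9 CPM at day 0 and 193, 197 and 296 at day 8 and fell 12-fold (log2 fold change -3.58 ± 0.32 SE, adjusted p = 8.97e-06). Ctnnb1, beta-catenin, the signal carrier of the pathway, had 1106, 1137 and 1174 CPM at day 0 and 473, 461 and 517 at day 8 and fell 2.34-fold (log2 fold change -1.22 ± 0.12 SE, adjusted p = 1.52e-05). Neither gene's groups overlapped. Dkk3, a secreted protein of the Dickkopf family, was 20.3-fold lower (log2 fold change -4.34 ± 0.63 SE, adjusted p = 0.000186).

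Surface and stromal markers of precursors held 0.846%, 0.831% and 0.762% at day 0 and 0.192%, 0.169% and 0.259% at day 8, with 26 of 36 lower and 3 higher. Pdgfrb (ENSMUSG00000024620), a receptor for platelet-derived growth factor on stromal cells, had 1660.3, 1617 and 1668 CPM at day 0 and 256, 234 and 301 at day 8 and fell 6.198-fold (log2 fold change -2.63 ± 0.30 SE, adjusted p = 4.46e-05). Pdgfra (ENSMUSG00000029231), the receptor by which preadipocytes are often sorted, had 618, 737 and 733 CPM at day 0 and 164, 211 and 292 at day 8 and fell 3.11-fold (log2 fold change -1.64 ± 0.30 SE, adjusted p = 0.000824). Neither receptor was lost: in day 8 replicate 1, the lowest library, Pdgfra still read 164 CPM. Thy1 and Cd248, surface proteins of fibroblasts, fell 3.51-fold and 5.06-fold.

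Some precursor markers were not called. Ly6a (ENSMUSG00000075602), the stem cell antigen Sca-1, had 239.7, 186 and 151 CPM at day 0 and 110.5, 103 and 128 at day 8. The groups did not overlap, but the gene was not called (log2 fold change -0.74 ± 0.31 SE, adjusted p = 0.0532), and it was called under several alternative settings, among them the fit to the day 0 and day 8 libraries only. Dlk1, preadipocyte factor 1, had 9.73, 5.09 and 9.63 CPM at day 0 and 5.52, 8.28 and 5.96 at day 8, with overlapping groups (log2 fold change -0.30 ± 0.28 SE, adjusted p = 0.36). Cd34 and Dpp4 were likewise not called, but without day 8 replicate 3 Cd34 was called lower (log2 fold change -1.29, adjusted p = 0.0364, against -0.22 with it). Pi16, a marker of early stromal progenitors, had 4.77, 3.57 and 6.75 CPM at day 0 and 0.0286, 0.111 and 0.459 at day 8 (log2 fold change -4.63 ± 0.80 SE, adjusted p = 0.000581), and its log2 fold change was -6.07 without day 8 replicate 3. Cd34, Dpp4 and Pi16 were chosen after their values were seen.

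A gene was counted as lost when it was called, its fitted log2 fold change was -4 or below (16-fold) and its day 0 libraries averaged 100 counts or more. By this rule 104 genes were lost (0.707% of tested genes), and 339 were gained by the mirror rule (2.3%). Just inside the limit lay Ccn2 at -4.004, Gfra1 at -4.013 and Serpinb1a at -4.015, and just outside Serpinb9b at -3.997, Ltbp2 at -3.991 and Acta2 at -3.975. Without day 8 replicate 3, Serpinb1a stood at -4.80 and Serpinb9b at -4.71. The lost genes held 1.41%, 1.42% and 1.38% of footprints in the day 0 libraries and 0.0431%, 0.0318% and 0.0896% at day 8. The lost genes thus account for a small part of the 47.0% of footprints that lay elsewhere at day 8.

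No lost gene was at 0 in all day 8 libraries. The median lost gene kept 2.71%, 1.87% and 6.53% of its mean day 0 level in day 8 replicates 1, 2 and 3. The residue was thus largest in replicate 3, the library in which the stromal markers were also highest. Without that library 162 genes met the rule, all 104 among them. By class, 72 of the 104 were in none, 6 were precursor markers and 4 each were collagens, matrix glycoproteins, TGF-beta or CCN signals, and inflammatory genes.

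**Figure D4:**
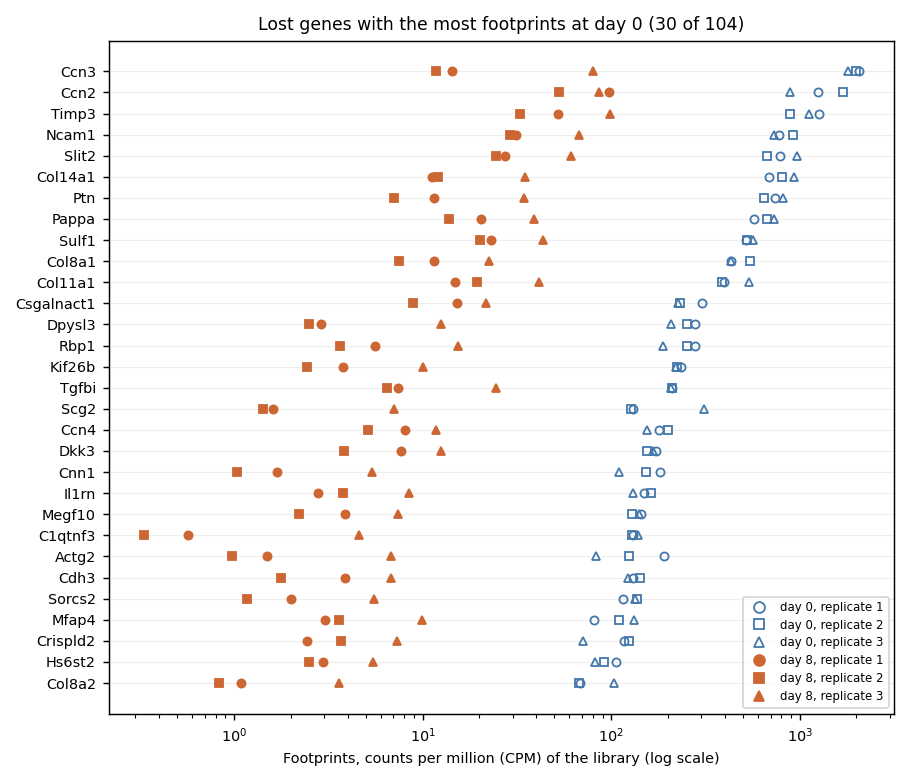
Footprints in CPM (log axis) in each day 0 library (open symbols) and day 8 library (filled symbols) for the 30 lost genes with the most footprints at day 0. The groups are far apart for every gene, and day 8 replicate 3 (filled triangle) has the highest of the day 8 values for nearly all of them.

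Among the 10 lost genes with the most counts, several act between cells or on the cell surface. Ncam1, a neural and stromal adhesion molecule, had 779, 926 and 731 CPM at day 0 and 31.2, 29.1 and 67.7 at day 8 and was 18.8-fold lower (log2 fold change -4.23 ± 0.43 SE, adjusted p = 2.03e-05). Slit2, a secreted guidance cue, had 788, 673 and 967 CPM at day 0 and 27.2, 24.4 and 61.5 at day 8 and was 21.3-fold lower (log2 fold change -4.41 ± 0.50 SE, adjusted p = 3.74e-05). Ptn, the heparin-binding growth factor pleiotrophin, had 744, 649 and 813 CPM at day 0 and 11.5, 7.08 and 34.6 at day 8. It was 41.03-fold lower (log2 fold change -5.36 ± 0.68 SE, adjusted p = 7.85e-05), and -6.28 without day 8 replicate 3.

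Pappa, a protease that frees insulin-like growth factors from their binding proteins, had 571, 668 and 732 CPM at day 0 and 20.3, 13.7 and 39.2 at day 8 and was 26.7-fold lower (log2 fold change -4.74 ± 0.48 SE, adjusted p = 2.1e-05). Sulf1, which trims sulfate from heparan sulfate chains, had 518, 523 and 562 CPM at day 0 and 23.1, 20.1 and 43.6 at day 8 and was 18.3-fold lower (log2 fold change -4.19 ± 0.42 SE, adjusted p = 1.93e-05). In both, as in Ncam1, Slit2 and Ptn, replicate 3 was the highest of the day 8 libraries and lay far below all of day 0. The strongest fall among precursor markers was that of Crabp2, a retinoic acid carrier, with 19.2, 22.1 and 9.29 CPM at day 0 and 0.0286, 0.0557 and 0.545 at day 8 (log2 fold change -6.29 ± 0.70 SE, adjusted p = 3.49e-05). C1qtnf3, a secreted protein of the C1q family, had 131, 129.7 and 139 CPM at day 0 and 0.572, 0.334 and 4.59 at day 8 (log2 fold change -6.17 ± 0.82 SE, adjusted p = 0.000108). With day 8 replicate 3 left out, Crabp2 stood at -8.49 and C1qtnf3 at -8.17 on the log2 scale. Crabp2 had 22 counts over all day 8 libraries. In day 8 replicates 1 and 2, 1 count equals 0.0286 and 0.0279 CPM, so its value of -8.49 rests on very few counts. Both genes were chosen after their values were seen.

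Inflammatory genes fell on balance. The class held 0.444%, 0.439% and 0.417% and 0.1403%, 0.141% and 0.203%, with 26 of 37 members lower and 5 higher. Cxcl12, a stromal chemokine, had 620.1, 614 and 560.4 CPM at day 0 and 133, 119 and 308 at day 8 and fell 3.17-fold (log2 fold change -1.67 ± 0.34 SE, adjusted p = 0.00155). Il1rn, the interleukin-1 receptor antagonist, was 29.1-fold lower (log2 fold change -4.86 ± 0.72 SE, adjusted p = 0.000213), and -5.46 without day 8 replicate 3. The macrophage list was lower at day 8 as well, and its part in the class was not tested.

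Interferon and antigen presentation genes went the other way in share, at 0.267%, 0.253% and 0.247% and 0.419%, 0.419% and 0.386%. Of 36 members 10 were higher (27.8%, against 34.2% of all tested genes) and 7 lower (19.4%, against 33.5%). The other 19 were not called and the median was 0.19, so the rise did not extend to all members. These counts depended on the setting. With the day 0 and day 8 libraries only, 12 were higher and 10 lower. Without day 4 replicate 2 and day 8 replicate 3, 15 were higher and 10 lower, with a median of 0.21. H2-K1, a class I histocompatibility chain, had 76.6, 99.7 and 88.96 CPM at day 0 and 509, 542 and 482 at day 8 and rose 5.82-fold (log2 fold change 2.54 ± 0.17 SE, adjusted p = 1.93e-06). Ifitm3, an antiviral membrane protein, fell 2.85-fold (log2 fold change -1.51 ± 0.33 SE, adjusted p = 0.00236).

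Cell cycle genes fell widely. Of 68 members 53 fell and 6 rose, with a median of -1.61, while the class held 0.295%, 0.271% and 0.275% of footprints at day 0 and 0.17%, 0.173% and 0.1801% at day 8. Cdk4, a kinase of G1, had 247, 237 and 264 CPM at day 0 and 95.3, 84.3 and 87.95 at day 8 and fell 2.77-fold (log2 fold change -1.47 ± 0.19 SE, adjusted p = 7.82e-05). Cdkn1a, the inhibitor p21, had 353, 268 and 286 CPM at day 0 and 469, 464 and 404 at day 8 and rose 1.49-fold (log2 fold change 0.57 ± 0.13 SE, adjusted p = 0.0031). Cdk4 and Cdkn1a thus moved in opposite directions, without overlap in either. Cdkn2a, another inhibitor gene, fell like the kinase (log2 fold change -1.33, adjusted p = 0.000193).

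On the rising side, 3 lipid handling classes went from 0.668%, 0.691% and 0.691% of all footprints to 13.5%, 13.1% and 12.6%. The mean share was 0.683% ± 0.0135 at day 0 and 13.04% ± 0.4501 at day 8 (SD, n = 3), a ratio of 19.1 (exact two-sided permutation p = 0.1, the smallest possible). The day 8 libraries lay within 1 point of each other, closer than they did for the matrix.

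Uptake genes and carriers had the largest gain in points of any class, from 0.207%, 0.2404% and 0.255% to 6.96%, 6.802% and 6.799%, with 12 of 14 members higher and 1 lower. Fabp4 (ENSMUSG00000062515), the fatty acid carrier of fat cells, had 179.7, 232 and 172 CPM at day 0 and 45581, 45152 and 43087 at day 8. It rose 231-fold (log2 fold change 7.85 ± 0.33 SE, adjusted p = 1.61e-07), with the day 8 libraries within a narrow range. Lpl, the lipase that frees fatty acids from lipoproteins, had 1161, 1450.3 and 1672 CPM at day 0 and 11328, 11447 and 12867 at day 8 and rose 8.37-fold (log2 fold change 3.06 ± 0.22 SE, adjusted p = 2.67e-06).

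Cd36, the fatty acid transporter, had 16.7, 23.7 and 21.3 CPM at day 0 and 4491, 4453 and 4580.3 at day 8 and rose 221-fold (log2 fold change 7.79 ± 0.28 SE, adjusted p = 9.06e-08). Acsl1, which activates fatty acids with coenzyme A, had 26.1, 24.6 and 23.4 CPM at day 0 and 3295, 2399 and 3120.1 at day 8 and rose 120.1-fold (log2 fold change 6.91 ± 0.24 SE, adjusted p = 9.06e-08). For each of these 4 genes every day 8 library was far above every day 0 library.

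Synthesis and desaturation genes went from 0.362%, 0.353% and 0.344% to 3.88%, 3.797% and 3.68%, with 20 of 24 members higher and 1 lower. Scd1 (ENSMUSG00000037071), which puts a double bond into stearate and palmitate, had 227, 250.01 and 214 CPM at day 0 and 21899, 19578 and 19788 at day 8. It rose 89.4-fold (log2 fold change 6.48 ± 0.47 SE, adjusted p = 2.53e-06), and the related Scd2 4.08-fold (log2 fold change 2.03 ± 0.19 SE, adjusted p = 1.43e-05). Fasn, fatty acid synthase, had 502, 500.1 and 577 CPM at day 0 and 6446, 6897 and 6282 at day 8 and rose 12.5-fold (log2 fold change 3.64 ± 0.23 SE, adjusted p = 1.43e-06). Elovl3, an elongase of brown and beige fat, had 1.29, 1.33 and 0.977 CPM at day 0 and 289, 252 and 302 at day 8 (log2 fold change 7.89 ± 0.24 SE, adjusted p = 6.13e-08), and its level in replicate 3 was no lower than in the other day 8 libraries.

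Triglyceride and droplet genes had the highest median of the classes, 4.87, with 28 of 32 higher and 1 lower, and their share went from 0.09801%, 0.0971% and 0.0922% to 2.63%, 2.47% and 2.09%. Gpd1, which makes the glycerol backbone, had 13.5, 16.8 and 13.95 CPM at day 0 and 3547, 3014 and 2339.96 at day 8 and rose 203-fold (log2 fold change 7.66 ± 0.29 SE, adjusted p = 1.19e-07). Pnpla2 (ATGL) and Lipe (hormone-sensitive lipase), which release stored fat in sequence, rose 79.9-fold and 142-fold (6.32 ± 0.24 and 7.15 ± 0.30). Plin2, a droplet coat protein, rose 15.7-fold from 199.7, 211 and 197 to 3259.7, 3155 and 3043 CPM.

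Cidea (ENSMUSG00000024526), a droplet protein of brown and beige fat, had 1.71, 0.973 and 1.34 CPM at day 0 and 750.2, 761 and 334 at day 8. It rose 461-fold (log2 fold change 8.85 ± 0.68 SE, adjusted p = 3.91e-06), and replicate 3 was the lowest of the day 8 libraries. Adipoq (ENSMUSG00000022878), the hormone adiponectin, had 10.5, 11.8 and 11.2 CPM at day 0 and 2233, 1941 and 2294 at day 8 and rose 195-fold (log2 fold change 7.60 ± 0.20 SE, adjusted p = 3.07e-08). In Adipoq replicate 3 was the highest at day 8, so that library was low in some fat cell genes and not in others. Rbp4, a retinol carrier that fat cells secrete, had 2.29, 3.41 and 2.99 CPM at day 0 and 1038, 919.8 and 889 at day 8 (log2 fold change 8.37 ± 0.71 SE, adjusted p = 6.67e-06), and of the 22 adipokines and secreted proteins 19 rose and 1 fell.

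**Figure D5:**
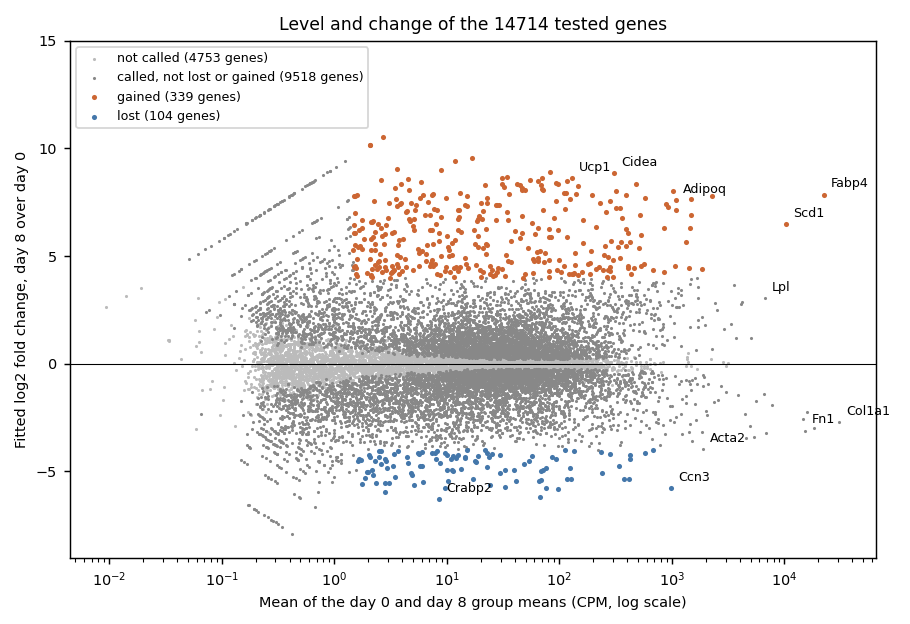
Fitted log2 fold change against the mean of the group means (CPM, log axis) for the 14714 tested genes, with the 104 lost genes and 339 gained genes coloured. Fabp4 and Scd1 are among the gained genes, while Col1a1 and Fn1 fell without reaching the limit of a lost gene.

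Mitochondrial energy genes took up the next largest part. The 6 classes together (nuclear respiratory chain, ATP synthase, citric acid cycle, fatty acid oxidation, mitochondrial DNA-encoded proteins and mitochondrial ribosomal proteins) held 1.68%, 1.67% and 1.56% at day 0 and 11.5%, 11.5% and 9.27% at day 8. All 67 tested nuclear genes of the respiratory chain rose (100%, against 34.2% of all tested genes), with a median of 2.64. The share of that class went from 0.569%, 0.571% and 0.524% to 3.78%, 3.83% and 2.96%, and replicate 3 was the lowest of the day 8 libraries.

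Cox4i1, a core subunit of cytochrome c oxidase, had 315, 314 and 279 CPM at day 0 and 1964, 2002 and 1661 at day 8 and rose 6.25-fold (log2 fold change 2.64 ± 0.20 SE, adjusted p = 3.4e-06). Uqcrfs1, the Rieske iron-sulfur protein of complex III, had 100.4, 102 and 94.8 CPM at day 0 and 1415, 1375 and 1200.4 at day 8 and rose 13.6-fold (log2 fold change 3.76 ± 0.21 SE, adjusted p = 6.84e-07). Cox7a1, the heart and brown fat form of an oxidase subunit, had 2.61, 3.24 and 1.95 CPM at day 0 and 488, 526 and 357 at day 8 and rose 178-fold (log2 fold change 7.47 ± 0.57 SE, adjusted p = 3.66e-06). No day 8 library overlapped day 0 in any of the 3 subunits, and Cox7a1 was very low in the precursor.

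Of the 13 proteins that mitochondrial DNA encodes, 11 rose and none fell, with a median of 1.06. Their share went from 0.117%, 0.0875% and 0.101% to 0.241%, 0.258% and 0.207%. mt-Co1, the catalytic oxidase subunit, had 349.8, 246 and 293 CPM at day 0 and 878, 943 and 695 at day 8 and rose 2.85-fold (log2 fold change 1.51 ± 0.16 SE, adjusted p = 3.1e-05). Reads on the mitochondrial ribosomal RNAs mt-Rnr1 and mt-Rnr2 rose too, 3.07-fold and 2.302-fold, but these RNAs are not translated and their reads are not footprints of coding sequence. Of 77 mitochondrial ribosomal protein genes 74 rose and none fell, with a median of 1.54.

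ATP synthase went from 0.314%, 0.318% and 0.296% to 1.82%, 1.799% and 1.51%, with 16 of 17 members higher. Atp5b, its catalytic beta subunit, had 1006, 1055 and 984 CPM at day 0 and 7746, 7999.6 and 6478 at day 8 and rose 7.36-fold (log2 fold change 2.88 ± 0.22 SE, adjusted p = 3.66e-06). Citric acid cycle and pyruvate entry genes went from 0.237%, 0.238% and 0.224% to 2.71%, 2.71% and 2.21%, with 25 of 27 higher and 1 lower. Pcx, pyruvate carboxylase, which feeds the cycle and fat synthesis, had 55.3, 51.4 and 52.3 CPM at day 0 and 2749, 2571 and 2502 at day 8 and rose 49.6-fold (log2 fold change 5.63 ± 0.32 SE, adjusted p = 7.71e-07).

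Fatty acid oxidation went from 0.218%, 0.224% and 0.213% to 2.26%, 2.26% and 1.81%, with 33 of 34 members higher. Acadvl, the first dehydrogenase for long chains, had 124, 126 and 125 CPM at day 0 and 2860.3, 3011 and 2199 at day 8 and rose 21.7-fold (log2 fold change 4.44 ± 0.25 SE, adjusted p = 7.61e-07). Hadha, of the trifunctional protein, rose 12.01-fold (log2 fold change 3.59 ± 0.21 SE, adjusted p = 9.53e-07). The 1 member that fell was Cpt1a, the widely expressed form of the transferase that admits fatty acids to mitochondria, from 123, 131 and 154 to 35.96, 36.4 and 36.3 CPM (log2 fold change -1.90 ± 0.29 SE, adjusted p = 0.000237). Its muscle and brown fat form Cpt1b rose from 0.0966, 0.1298 and 0.112 to 17.4, 18.5 and 12.4 (log2 fold change 7.12 ± 0.38 SE, adjusted p = 5.85e-07). Both Cpt1 genes were named after their values were seen.

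Thermogenesis genes took little of the pool. The class held 0.0949%, 0.0925% and 0.1002% at day 0 and 0.155%, 0.163% and 0.124% at day 8, with 10 of 17 members higher and 2 lower. Averaged over the 6 libraries, 56.1% of the class share lay on Atp2a2, which was called lower. The class share therefore understates the change of most members, whose median log2 fold change was 3.19. Ucp1 (ENSMUSG00000031710) had 0.547, 0.973 and 0.446 CPM at day 0 and 299.7, 342 and 133 at day 8 and rose 398-fold (log2 fold change 8.64 ± 0.73 SE, adjusted p = 6.38e-06), with replicate 3 lowest at day 8 and far above day 0. Adrb3, the adrenergic receptor of fat cells, had 1.93, 2.14 and 0.893 CPM at day 0 and 149.6, 136 and 98.4 at day 8 and rose 78.7-fold (log2 fold change 6.30 ± 0.53 SE, adjusted p = 6.2e-06). Atp2a2, the calcium pump SERCA2 of the calcium cycle, had 766, 745 and 829.7 CPM at day 0 and 568, 585 and 596 at day 8. It was called lower (log2 fold change -0.41 ± 0.14 SE, adjusted p = 0.0236), but not called without day 0 replicate 3, day 8 replicate 1 or day 8 replicate 2.

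Transcription factors and coregulators of fat cells are a small class, at 0.0682%, 0.0709% and 0.0692% and 0.247%, 0.256% and 0.204%, with 20 of 27 higher and 5 lower. Pparg (ENSMUSG00000000440), the master regulator and the target of rosiglitazone, had 23.3, 23.8 and 12.2 CPM at day 0 and 323, 306 and 279 at day 8 and rose 15.5-fold (log2 fold change 3.96 ± 0.29 SE, adjusted p = 2.82e-06). Cebpa, its partner, had 36.4, 34.2 and 32.7 CPM at day 0 and 564, 606 and 515 at day 8 and rose 16.4-fold (log2 fold change 4.04 ± 0.22 SE, adjusted p = 6.84e-07). Ppara, the receptor that drives fatty acid oxidation, had 0.998, 0.941 and 1.03 CPM at day 0 and 221, 219 and 122 at day 8 and rose 189-fold (log2 fold change 7.57 ± 0.33 SE, adjusted p = 2.06e-07). Replicate 3 was the lowest of the day 8 libraries for each of these 3 genes.

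Sugar, amino acid and redox metabolism had more genes higher than lower. Of 25 glycolysis genes 23 rose and 1 fell, and the class went from 0.336%, 0.383% and 0.2902% to 1.83%, 1.78% and 1.44%. Aldoa, the aldolase, had 589, 714 and 491 CPM at day 0 and 4538, 4663 and 3469 at day 8 (log2 fold change 2.83 ± 0.29 SE, adjusted p = 2.28e-05), and a second, much smaller entry of that symbol in the table also rose. Of 44 genes for amino acid breakdown and synthesis 34 rose and 7 fell. Bckdha, of the complex that commits branched-chain amino acids to breakdown, had 52.6, 57.4 and 53.7 CPM at day 0 and 663, 740.2 and 534 at day 8 and rose 11.9-fold (log2 fold change 3.58 ± 0.27 SE, adjusted p = 3.53e-06).

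Amino acid transporters were mixed, with 8 of 27 higher (29.6%, against 34.2% of all tested genes) and 14 lower (51.9%, against 33.5%). Slc36a2, a proton-coupled transporter found in brown fat, had 3.45, 3.57 and 3.21 CPM at day 0 and 795, 851 and 692 at day 8 and rose 230.4-fold (log2 fold change 7.85 ± 0.33 SE, adjusted p = 1.68e-07). Slc38a2, a transporter induced by amino acid lack, had 618, 677 and 714 CPM at day 0 and 266, 283 and 273 at day 8 and fell 2.43-fold (log2 fold change -1.28 ± 0.13 SE, adjusted p = 2.05e-05). Hmox1, heme oxygenase, had 347, 385 and 382 CPM at day 0 and 2978, 3491 and 2616 at day 8 and rose 8.22-fold (log2 fold change 3.04 ± 0.16 SE, adjusted p = 5.82e-07), in a redox and iron class with 26 of 39 members higher and 11 lower.

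The machinery of protein synthesis differed little in share, at 1.61%, 1.704% and 1.596% at day 0 and 1.51%, 1.46% and 1.45% at day 8. Of 70 translation factors 21 rose (30.0%, against 34.2% of all tested genes) and 19 fell (27.1%, against 33.5%). Their median of 0.03 turned to -0.08 under upper quartile scaling and -0.01 without day 8 replicate 3. Eef2, the translocation factor, had 1029, 1179 and 1081 CPM at day 0 and 612, 531 and 579 at day 8 and fell 1.89-fold (log2 fold change -0.92 ± 0.20 SE, adjusted p = 0.00229). Eif4ebp1, which holds back cap-dependent initiation, had 64.4, 69.4 and 49.3 CPM at day 0 and 225, 238 and 221 at day 8 and rose 3.77-fold (log2 fold change 1.92 ± 0.20 SE, adjusted p = 2.13e-05).

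Of 86 cytosolic ribosomal protein genes 42 fell and 5 rose, with a median of -0.50. They held only 0.289%, 0.326% and 0.265% of footprints at day 0 and 0.209%, 0.199% and 0.209% at day 8. These genes have many near-identical pseudogenes, and how multi-mapping reads were counted is not stated, so their counts are uncertain. Proteasome genes rose in 35 of 43 cases and fell in 2, with a median of 0.51. Psma1, of its core ring, had 129, 131 and 117 CPM at day 0 and 986, 899 and 868 at day 8 and rose 7.37-fold (log2 fold change 2.88 ± 0.22 SE, adjusted p = 3.53e-06).

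Chaperones of the secretory pathway differed little in share. The class of ER chaperones and folding enzymes held 1.93%, 1.91% and 1.75% at day 0 and 2.04%, 2.09% and 2.003% at day 8, with 9 of 37 members higher and 16 lower, against 34.2% and 33.5% of all tested genes. Ero1a, an oxidase that forms disulfide bonds, had 189, 207 and 150.3 CPM at day 0 and 2766, 2675 and 2939.6 at day 8 and rose 15.5-fold (log2 fold change 3.95 ± 0.43 SE, adjusted p = 3.01e-05). P4hb, a disulfide isomerase and subunit of the collagen prolyl hydroxylase, had 2077, 2106 and 1781 CPM at day 0 and 1091, 1123 and 1481 at day 8 and fell 1.598-fold (log2 fold change -0.68 ± 0.17 SE, adjusted p = 0.00482). Hspa5, the main chaperone BiP, rose 2.29-fold (log2 fold change 1.20 ± 0.14 SE, adjusted p = 5.52e-05).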

How the data were processed

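The authors deposited raw footprint counts per gene for 9 libraries. Per the submitters' processing notes, cutadapt, HISAT2, featureCounts and the GRCm39 genome were used. Their versions, the strand setting and the treatment of multi-mapping reads were not given in the sources used here. Groups come from the labels, and all columns were mapped. Counts were filtered (filterByExpr, minimum count 10), scaled by TMM and fitted in edgeR 4.0.16 (R 4.3.3; glmQLFit, glmQLFTest) over all 9 libraries, with group alone in the design. The contrast is day 8 minus day 0, genes were called when the Benjamini-Hochberg adjusted p was under 0.05, and the SE comes from the F statistic. Shares are counts over library totals, without scaling. No replicate pair agreed within sampling noise, with a chi-square per degree of freedom of at least 15.8. Tested on simulated data (14428 genes, 200 changed), the fit recovered 52% of genes changed 2-fold and 84% of those changed 4-fold, with 10 other genes called. In the data 67.7% of tested genes were called, far more than were changed in the simulation. These rates therefore check the code and do not give the error rates of this comparison. Where all libraries of a group had 0 counts, the limit given is 3 counts per library, which covers counting error only.

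The classes, marker lists and the comparison itself were chosen with earlier results of these data known, and sums over several classes were formed after the data were seen. The rule for named genes takes called genes with the 15 largest falls and 15 largest rises in mean share and no overlap, up to 4 members per class with the largest change in share, the 10 lost and 10 gained genes with most counts, up to 3 genes per marker list, and 12 fixed genes. Predicted genes and pseudogenes are not named, and not all genes it takes are described or plotted. Genes outside it are marked as chosen after their values were seen. Promoter sequences are RefSeq's, of build GRCm38.p6, matched by symbol or synonym. They covered 73.8% of all tested genes, so the boxes of the contractile class were set against all promoters of the table. Among genes with a promoter, a CArG box lay in 2.97% of those called at least 4-fold lower. It lay in 1.74% of those at least 4-fold higher and 1.60% of all tested genes. A PPAR direct repeat (DR1) was searched too. It lay in 0.103%, 0.696% and 0.479% of the same sets, and in 0 of 231 gained genes. In the triglyceride class 1 of 28 genes held one. No difference was tested.

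Alternatives were library totals and upper quartile scaling, no filter on low counts, the day 0 and day 8 libraries only, a replicate block, DESeq2 1.42.0, limma-voom (limma 3.58.1) and each library left out in turn.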

Additional observations from a re-analysis of the deposited data

How the results depend on the processing

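Across all settings 9135 to 10693 genes were called, and no gene of the 9961 changed sign among those still called. The count of lost genes was 80 to 115, except 162 without day 8 replicate 3 and 163 without day 4 replicate 2 and day 8 replicate 3. All 104 lost genes were among these. Leaving out each library in turn gave 80 to 162 lost genes and 331 to 356 gained genes. Without the 10 genes that hold the most counts, the share of reallocated footprints was 41.8% (47.0% with them). With the replicate number as a block, 9722 genes were called, 106 lost and 338 gained. Libraries of the same number deviated together weakly (correlations 0.121, 0.0710 and 0.0855), and those of different numbers had correlations of -0.103 to -9.04e-05. These values do not settle whether the numbers are a pairing, and the main fit does not use them as one. Upper quartile scaling put 45.4% of calls on the higher side, against 50.5%. Among the other results, 4576 gene values kept their call, 16 lost it and 14 gained it, and none reversed. Without day 4 replicate 2 and day 8 replicate 3 the sterol class had 9 lower members in place of 4 and thermogenesis 5 in place of 2. In the same setting the interferon class had 15 higher members in place of 10, and 10 lower in place of 7. The shares decoded per amino acid were not run, since no protein table was at hand. Depth limits only genes with few counts: 1 count is about 0.03 CPM.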

Other observations

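Some large changes lay outside the classes. The largest were the fall of Lrp1, from a mean of 8599 to 2562 CPM, and the rise of Bsg, from 1056 to 7124. The other genes named here were chosen after their values were seen, and not by rank. Among the falls, Aebp1, a collagen-binding matrix protein, had 2263, 2405 and 2909 CPM at day 0 and 304, 235 and 537 at day 8 (log2 fold change -2.80 ± 0.40 SE, adjusted p = 0.000163). Mrc2, the receptor that takes up collagen fragments, had 1741, 1862 and 1902 CPM at day 0 and 288, 265 and 439 at day 8 (log2 fold change -2.46 ± 0.29 SE, adjusted p = 5.02e-05). Hif1a, the oxygen-sensing transcription factor, had 935, 987 and 839 CPM at day 0 and 173, 158 and 244 at day 8 (log2 fold change -2.25 ± 0.22 SE, adjusted p = 1.85e-05), and Sox9, a regulator of cartilage and stromal progenitors, had 109, 96.9 and 105 CPM at day 0 and 10.5, 11.98 and 20.05 at day 8 (log2 fold change -2.86 ± 0.33 SE, adjusted p = 4.06e-05). For Aebp1, Mrc2, Hif1a and Sox9 every day 8 library lay below every day 0 library. Among the rises, Cdo1, cysteine dioxygenase of taurine synthesis, had 11.4, 12.3 and 12.1 CPM at day 0 and 1740.01, 1812 and 1922 at day 8 (log2 fold change 7.27 ± 0.35 SE, adjusted p = 3.46e-07). Car3, a carbonic anhydrase of muscle and fat, had 5.25, 6.099 and 5.497 CPM at day 0 and 1049, 1054 and 1371 at day 8 (log2 fold change 7.70 ± 0.46 SE, adjusted p = 9.67e-07), and Alas1, which starts heme synthesis, had 93.6, 104 and 102 CPM at day 0 and 1385, 1255 and 1064 at day 8 (log2 fold change 3.64 ± 0.17 SE, adjusted p = 2.85e-07). Chchd10, a protein of the mitochondrial intermembrane space, had 61.7, 108 and 83.04 CPM at day 0 and 1711, 1943 and 1213 at day 8 (log2 fold change 4.28 ± 0.38 SE, adjusted p = 9.36e-06). Day 8 libraries of these genes lay far above day 0 in each case.

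Forms of the same enzyme or carrier were compared in a few families chosen after their values were seen. The pyruvate dehydrogenase kinase Pdk3 had 50.2, 39.4 and 43.3 CPM at day 0 and 19.9, 22.04 and 26.7 at day 8 (log2 fold change -0.94 ± 0.15 SE, adjusted p = 0.000396), and Pdk4, the form induced by fasting, had 19.1, 16.1 and 14.7 CPM at day 0 and 1179, 1334 and 598 at day 8 (log2 fold change 5.97 ± 0.31 SE, adjusted p = 5.45e-07). The insulin-regulated glucose carrier Slc2a4 rose from 2.13, 1.395 and 1.56 to 411, 458 and 291 CPM (log2 fold change 7.84 ± 0.52 SE, adjusted p = 1.71e-06), and the widely expressed Slc2a1 rose as well (log2 fold change 1.59 ± 0.27 SE, adjusted p = 0.000484).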
